A study of Mus musculus with 24 samples.

Results

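The genes described here are 52 tRNA modification enzymes and their partner subunits, matched by gene symbol to a list of names, with no threshold on a measured value. All 52 were found among the 55450 genes of the expected count table. Total RNA was sequenced from 3 tissues (cerebellum, liver and testes) of mice with Thumpd1 knocked out (KO) or wild type (WT), with 4 libraries per genotype and tissue, 24 in all. The KO allele came from C57BL/6N eggs edited with CRISPR-Cas9 guide RNAs against exons 1 and 4 of Thumpd1, so it is a whole-body deletion that every cell type of each tissue carries. Mice of both genotypes were between 6 and 12 weeks old and of either sex, and the WT animals were littermates matched for age. The testes libraries are from males. For cerebellum and liver the labels used here give no sex, so its balance between genotypes cannot be checked. The labels number the libraries without naming the animals, so the p-values below measure the spread between these libraries.

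Transfer RNAs carry more chemical modifications than any other class of RNA, and enzymes place them at defined positions. Modifications in the anticodon loop tune codon reading and keep the reading frame, whereas those in the body of the molecule mainly help it to fold and to escape decay. Thumpd1 is the adaptor that lets the acetyltransferase Nat10 place N4-acetylcytidine in the D arm of leucine and serine tRNAs, and the comparisons below ask how the messages of the other modification enzymes stand in tissues that lack it.

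The 52 members fall into 8 groups by the modification they make. Elongator (Elp2, Elp3, Elp4, Elp5 and Elp6), the thiolase pair Ctu1 and Ctu2 and the methyltransferase Alkbh8 act on the wobble uridine, 8 members in all. A group of 9 acts on the base next to the anticodon. Osgep and Tprkb of the KEOPS complex work there with Yrdc on threonylcarbamoyladenosine, Trit1 adds an isopentenyl group, Trmt5 methylates guanosine, Tyw1 and Tyw3 build wybutosine, and Cdkal1 and Cdk5rap1 add methylthio groups. The cytosine 5-methylation group holds 5 members, Nsun2, Nsun3, Nsun6, Trdmt1 and the dioxygenase Alkbh1. Other methyltransferases make up the largest group with 12 members: Mettl1 and its partner Wdr4, Trmt1, Trmt2a, Trmt6 and its partner Trmt61a, Trmt10a, Trmt10c, Trmt11, Trmt13, Trmt44 and Ftsj1. The remaining groups are 4 dihydrouridine synthases, 6 pseudouridine synthases, 5 enzymes of deamination, queuine exchange and guanylate addition (Adat1, Adat2, Adat3, Qtrt1 and Thg1l) and 3 enzymes of the mitochondrial wobble uridine (Mto1, Gtpbp3 and Trmu).

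Thumpd1 itself (ENSMUSG00000030942.8, chromosome 7, 119715093 to 119720798, minus strand, mm10) separated the genotypes in every tissue. Levels are given here as normalized CPM, the count scaled to library size with TMM factors over the 24 libraries. WT cerebellum held 15.9, 16.1, 15.9 and 17.4 and KO cerebellum 0.0803, 0.0427, 0.0371 and 0. WT liver held 16, 16.3, 17 and 15.6 and KO liver 0, 0.0842, 0.178 and 0.109. In testes the WT libraries held 20.8, 22.9, 21.7 and 22.3, and the KO libraries 0.641, 0.952, 0.915 and 0.659, from 23 to 41 counts each. The residual level was thus higher in KO testes than in the other KO tissues, and no KO library came near a WT library. Depth ran from 16353797 to 37889615 counts per library, and the mean count of a member over the libraries of a tissue ran from 36.3 to 1579 in cerebellum, from 21 to 2132 in liver and from 45.6 to 4774 in testes. The defining marker genes of each tissue were present in its own libraries, with summed levels of at least 2896 normalized CPM, and summed to at most 5.24 in those of the other tissues.

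The start sites of 4 members are printed because the results turn on these genes: Cdk5rap1 and Trmt61a rose in KO cerebellum, Dus1l fell in KO liver, and Trmt10a had the widest range of mean normalized CPM between WT tissues. The sequences are from RefSeq on GRCm38.p6 and run 5′ to 3′ over 300 bases, 250 before and 50 from the annotated start. Capitals mark CCGGAAG, the core of an ETS factor site, or TGACGTCA, the cyclic AMP response element, on either strand. The Cdk5rap1 window is at chr2:154372670-154372969 on the minus strand, and that of Trmt61a at chr12:111677855-111678154 on the plus strand. The Dus1l window is at chr11:120796346-120796645 on the minus strand, and the first of 3 annotated for Trmt10a at chr3:138143198-138143497 on the plus strand.
Cdk5rap1: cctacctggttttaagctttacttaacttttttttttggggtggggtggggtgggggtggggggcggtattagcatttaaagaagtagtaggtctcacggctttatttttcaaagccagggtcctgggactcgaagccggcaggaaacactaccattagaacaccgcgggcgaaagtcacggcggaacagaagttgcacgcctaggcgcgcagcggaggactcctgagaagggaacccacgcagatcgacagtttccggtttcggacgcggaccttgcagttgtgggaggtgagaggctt
Trmt61a: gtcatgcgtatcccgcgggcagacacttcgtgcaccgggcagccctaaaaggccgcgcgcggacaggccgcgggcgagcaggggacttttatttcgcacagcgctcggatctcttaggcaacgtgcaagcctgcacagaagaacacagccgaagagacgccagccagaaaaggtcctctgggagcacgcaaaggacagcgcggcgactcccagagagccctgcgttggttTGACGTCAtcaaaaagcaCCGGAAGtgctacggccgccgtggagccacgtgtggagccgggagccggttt
Dus1l: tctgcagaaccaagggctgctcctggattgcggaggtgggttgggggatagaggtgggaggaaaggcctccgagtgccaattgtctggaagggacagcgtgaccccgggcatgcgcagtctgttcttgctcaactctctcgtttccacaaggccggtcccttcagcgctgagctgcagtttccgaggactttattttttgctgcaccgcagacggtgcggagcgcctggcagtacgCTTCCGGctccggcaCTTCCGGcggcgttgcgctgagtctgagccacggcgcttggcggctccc
Trmt10a: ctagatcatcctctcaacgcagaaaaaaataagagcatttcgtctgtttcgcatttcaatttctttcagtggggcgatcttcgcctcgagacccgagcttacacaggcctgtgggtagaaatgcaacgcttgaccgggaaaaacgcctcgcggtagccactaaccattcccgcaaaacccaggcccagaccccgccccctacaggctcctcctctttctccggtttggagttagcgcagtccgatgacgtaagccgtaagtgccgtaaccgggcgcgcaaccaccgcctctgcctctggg

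The Trmt61a window holds both motifs close to its start, the response element at -20 and the ETS core at -2, counted with the start base as 1 and the base before it as -1. Dus1l holds 2 ETS cores, at -14 and 2, and neither motif lies in the Cdk5rap1 or the first Trmt10a window. Of the 47 members with a promoter entry, 16 (34%) held CCGGAAG in some annotated window, against 15.9% of the 14184 genes that were tested between WT tissues and had an entry. TGACGTCA was found for 5 members (10.6%), Dus2, Pus10, Trmt5, Trmt61a and Tyw1, against 3.11% of those genes. The NRF1 site was found for 10.6% of members and 9.05% of genes, and TGATGNAA, part of the ATF4 composite site, for 1 member (Pus7, 2.13%) and 3.31% of genes. These matches describe the letters of the windows, and binding was not measured.

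In WT tissues the enzymes spanned a wide range of message levels, and the leading member differed by tissue. Levels are compared between genes per kilobase of annotated exon, the union of the exons of all annotated transcripts of a gene. The transcripts expressed can be shorter than this union, and the order of genes depends on it. In WT cerebellum the median member stood at 2.42 normalized CPM per kb, and the highest was Dus3l, a dihydrouridine synthase, at 18.5 ± 1.37 (SD, n = 4). Elp3, the catalytic subunit of Elongator, followed at 11.5 ± 0.432, then Tprkb at 9.04 ± 0.143, Elp2 at 8.02 ± 0.233 and Elp5 at 7.30 ± 0.793, the last pair lying within their spread. The lowest members there were Trmt10a at 0.413 ± 0.0760, Mettl1 at 0.768 ± 0.0674, Thg1l at 0.812 ± 0.0954, Adat3 at 0.851 ± 0.220 and Cdk5rap1 at 0.892 ± 0.108. Apart from Trmt10a these low members could not be ordered beyond their spread.

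WT liver had a median of 3.54 per kb and was led by Dus1l, another dihydrouridine synthase, at 31.8 ± 3.45. Tprkb followed at 22.6 ± 0.499 and the cytosine methyltransferase Nsun2 at 16.8 ± 1.65, ahead of Elp3 at 11 ± 1.21 and Dus3l at 10.4 ± 0.716, which lay within their spread. In normalized CPM, without exon length, Dus1l (119 ± 13) and Tprkb (121 ± 2.67) lay within their spread. Trdmt1 (0.459 ± 0.168), Tyw3 (0.539 ± 0.0797), Trmt11 (0.567 ± 0.121), Trmt10a (0.571 ± 0.191) and Adat3 (0.655 ± 0.439) were lowest, all within each other's spread. WT testes had a median of 2.26 per kb and were led by Elp5, a subunit of the accessory Elongator subcomplex, at 48.3 ± 1.36. Nsun2 followed at 23.1 ± 0.642, then Trmt1 at 12.5 ± 0.404 and Dus1l at 12.4 ± 0.818, which did not differ beyond their spread, and Elp3 at 9.33 ± 0.234. The lowest in testes were Ctu1 at 0.445 ± 0.0897, Trmt11 at 0.564 ± 0.0660, Elp6 at 0.619 ± 0.0494, Ftsj1 at 0.641 ± 0.0735 and Trub1 at 0.705 ± 0.0737. Elp3 was thus among the 5 highest members of every tissue, whereas Elp5 and Elp6, which belong to the same subcomplex, stood at opposite ends of the order in testes.

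**Figure D1:**
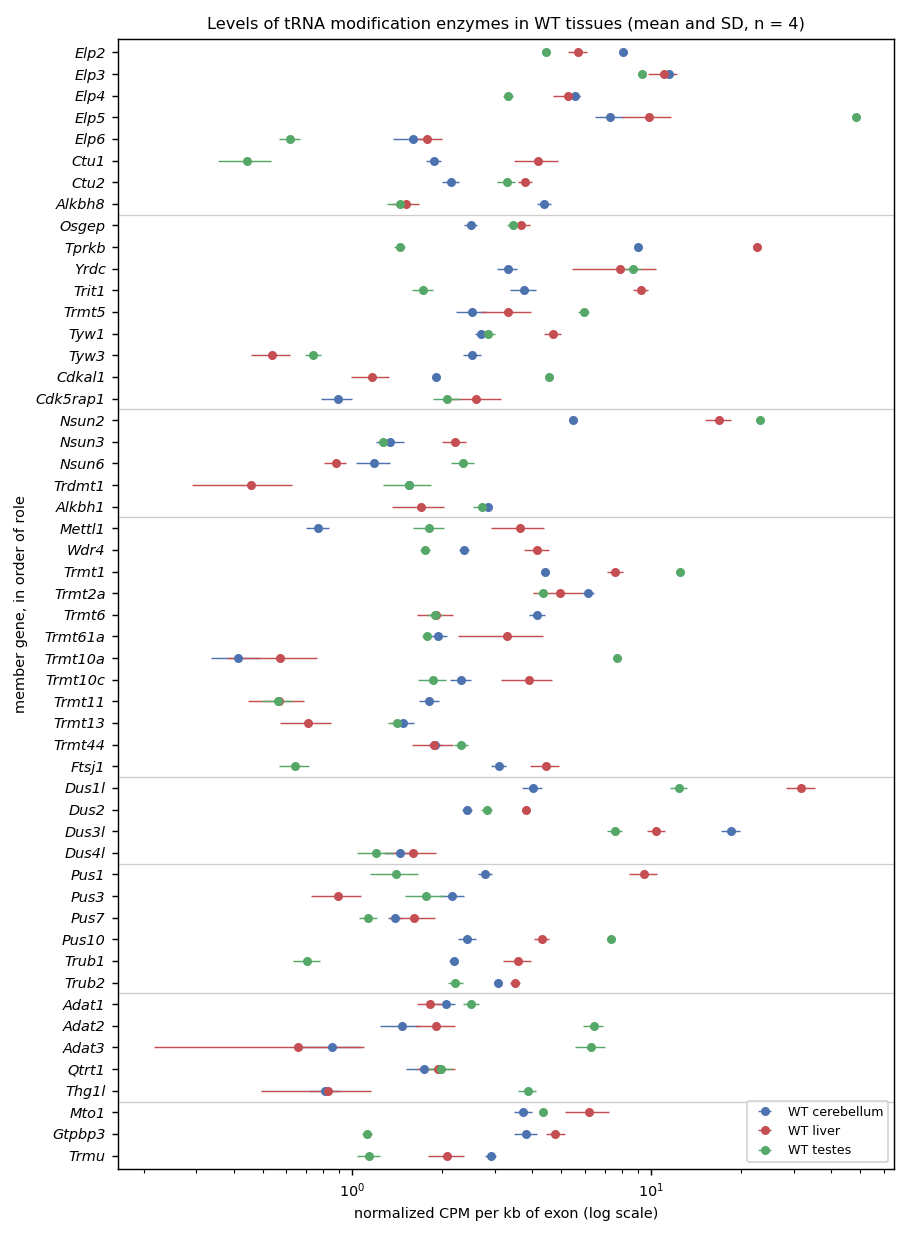
Level of each of the 52 members in WT cerebellum, liver and testes, as mean normalized CPM per kb of exon with its SD (n = 4), on a log axis and in the order of the 8 role groups, which grey lines divide. Elp5 in testes (48.3) and Dus1l in liver (31.8) lie farthest right, and Trmt10a lies near 0.5 in cerebellum and liver and at 7.67 in testes.

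Across the 3 WT tissues the members' highest mean level was a median of 2.59 times the lowest, and 16 members differed by over 4-fold. Between WT testes and WT liver, 18 of 52 members were higher and 27 lower in testes by limma at an adjusted p under 0.05, against 55.7% of the 21697 genes tested that were higher and 34.9% that were lower. Between WT testes and WT cerebellum 20 members were higher and 22 lower in testes, against 50.7% and 39.6% of genes. WT cerebellum held 14 members above and 26 below WT liver, against 43.3% and 44.2% of genes. How many lay on each side depended on the scaling. The testes to liver split was 18 to 27 with TMM factors, 12 to 36 after quantile normalization and 37 to 10 with library totals only, and the median of all genes moved with it, from 0.83 to -0.26 and 1.78 on the log2 scale. For testes against cerebellum the corresponding splits were 20 to 22, 17 to 30 and 17 to 28, with medians of all genes at 0.37, -0.27 and 0.11. For cerebellum against liver they were 14 to 26, 13 to 34 and 43 to 5, with medians at -0.02, -0.21 and 1.18. Measured from the median of all genes in the same scaling, the members' median log2 difference was -1.07, -0.37 and -1.06 for testes against liver, -0.45, -0.28 and -0.44 for testes against cerebellum, and -0.34, -0.44 and -0.34 for cerebellum against liver. The 21697 genes needed 1 CPM in at least 4 WT libraries, which 1 tissue alone can supply. The filter was passed in each of the 3 tissues by 51 of 52 members but by only 11112 genes. The members are thus set against many genes that are less broadly expressed. In bulk tissue, fewer cells of a type and less RNA per cell cannot be told apart.

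Some members kept their place under each of the 5 scalings and tools run (TMM with limma, quantile, library totals, edgeR and DESeq2). In testes 11 members stood above both other tissues in all 5: Elp5, Trmt5, Cdkal1, Nsun2, Nsun6, Trmt1, Trmt10a, Pus10, Adat2, Adat3 and Thg1l. Another 9 stood below both in all 5: Elp6, Ctu1, Tprkb, Trit1, Wdr4, Ftsj1, Pus1, Trub1 and Gtpbp3. In cerebellum 7 members stood above both (Elp2, Alkbh8, Tyw3, Trmt2a, Trmt6, Trmt11 and Dus3l) and 3 below (Nsun2, Mettl1 and Dus1l). In liver only Tprkb, Dus1l and Pus1 stood above both and Cdkal1 and Alkbh1 below both in all 5, out of 19 above and 7 below with TMM factors. Of the 21697 genes tested, the shares with the same place in all 5 were 33.5% above and 13.4% below both in testes, 24.2% and 8.26% in cerebellum, and 13.7% and 16.8% in liver. The corresponding shares of the 52 members were 21.2% and 17.3% (testes), 13.5% and 5.77% (cerebellum) and 5.77% and 3.85% (liver).

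Trmt10a, which methylates a guanosine between the acceptor and D stems of certain tRNAs and is known for a human syndrome of microcephaly and early diabetes, showed the widest range of mean normalized CPM, with testes at 18.6 times cerebellum. Its normalized CPM was 61.6, 59.3, 63.4 and 60.3 in WT testes, 4.22, 4.51, 6.58 and 2.90 in WT liver, and 3.01, 4.11, 2.70 and 3.35 in WT cerebellum. The testes libraries stood far above all others, whereas liver and cerebellum overlapped. The log2 difference was 3.77 ± 0.164 (SE) to liver (limma, adjusted p = 1.94e-10) and 4.21 ± 0.153 to cerebellum (3.47e-11). Adat2 and Adat3, the partners of the deaminase that makes wobble inosine, were also testes-high, with Adat2 at 1.73 ± 0.139 against liver (9.51e-08) and 2.12 ± 0.130 against cerebellum (6.98e-09). Adat3 was at 4.22 ± 0.815 (0.000343) and 2.90 ± 0.806 (0.00472), and at 2.72 against liver without WT liver 3, where it stood at 0. The row of Adat3 is uncertain, since the readthrough gene Gm49322 covers 1516 of its 1648 exon bases on the same strand and its counts were not whole in 22 of 24 libraries. Summing both rows lowered the log2 differences to 1.92 and 1.02. Elp5 (2.29 ± 0.102 against liver, 2.45e-10, and 2.72 ± 0.0964 against cerebellum, 2.65e-11) and Thg1l, which adds the extra guanosine of histidine tRNA (2.26 ± 0.184, 1.14e-07, and 2.24 ± 0.159, 2.89e-08), complete the largest rises in testes. Against liver, Thg1l was 1.29 after quantile normalization and 3.21 with library totals only, Trmt10a 3.17 and 4.72, and Elp5 2.19 and 3.24.

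Tprkb, a subunit of KEOPS, showed the opposite pattern to Trmt10a. It stood at 117, 122, 122 and 124 normalized CPM in WT liver, at 48.5, 47.4, 49.2 and 48.6 in WT cerebellum and at 8.16, 7.53, 7.76 and 7.45 in WT testes. The tissues did not overlap, with testes below liver by a log2 difference of -3.98 ± 0.0515 (limma, adjusted p = 1.92e-15) and below cerebellum by -2.65 ± 0.0529 (1.00e-13). Ctu1, the catalytic subunit of the wobble thiolase, was lower in testes by -3.24 ± 0.184 (2.85e-09) and -2.08 ± 0.191 (3.77e-07), and Ftsj1, which methylates riboses of the anticodon loop, by -2.80 ± 0.124 (2.22e-10) and -2.28 ± 0.123 (1.81e-09). The pseudouridine synthase Pus1 was -2.78 ± 0.128 below liver (3.32e-10), and Tyw3 was -1.77 ± 0.0939 below cerebellum (1.52e-09). The sizes moved with the scaling, with Tprkb against liver at -4.25 after quantile normalization and -3.03 with library totals only. Ctu1 against liver was -6.56 after quantile normalization and -2.29 with library totals only, and against cerebellum -5.07 and -2.34. Ftsj1 was -4.04 and -1.86 against liver and -3.53 and -2.53 against cerebellum, Pus1 -4.01 and -1.83 against liver, and Tyw3 -2.87 and -2.03 against cerebellum.

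Between WT cerebellum and WT liver the largest deficits in cerebellum were Dus1l at -2.99 ± 0.0976 (limma, adjusted p = 1.83e-11), the guanosine N7-methyltransferase Mettl1 at -2.24 ± 0.179 (1.32e-07), Pus1 at -1.77 ± 0.109 (9.38e-09) and Nsun2 at -1.63 ± 0.0657 (1.43e-10). With library totals only, these became -1.79, -1.03, -0.57 and -0.43, all still below 0. The largest excesses were Tyw3 at 2.22 ± 0.128 (4.68e-09), Trdmt1 at 1.80 ± 0.238 (1.66e-05), Trmt11 at 1.67 ± 0.143 (2.45e-07) and Alkbh8 at 1.54 ± 0.0900 (5.45e-09). After quantile normalization Trdmt1 was 0.84 and Trmt11 1.00. With library totals only the 4 differences were 3.42, 2.99, 2.87 and 2.74. Qtrt1, the catalytic subunit of the queuine exchange enzyme, passed the test between no pair of tissues, and Dus4l passed it for 1 pair.

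Loss of Thumpd1 left the levels of most of these enzymes within a narrow interval. In cerebellum 2 of 52 members were higher in KO (3.85%) by limma at an adjusted p under 0.05, against 3.93% of 16225 genes, and 0 were lower, against 2.51% of genes, so that 6.44% of genes passed in either direction. At an unadjusted p under 0.05, 7 members were higher and 2 lower, 17.3% of the members against 24.2% of genes. Both edgeR and DESeq2 called 3 members higher and 0 lower, against 3.91% and 2.63% of genes with edgeR and 4.36% and 3.8% with DESeq2. In liver 51 members were tested, since Adat3 did not reach 1 CPM in 4 of the 8 libraries. There 0 were higher, against 2.79% of 12816 genes, and 1 was lower (1.96%), against 3.12%, with 5.91% of genes called in either direction. The unadjusted p was under 0.05 for 3 members higher and 5 lower in liver, 15.7% of members against 23.3% of genes. There edgeR called 0 higher and 1 lower, against 2.81% and 3.49% of genes, and DESeq2 1 higher and 2 lower, against 5.18% and 5.81%. In testes 3 of 52 members were higher (5.77%), against 9.74% of 19329 genes, and 3 were lower, against 10.7%, so that 11.5% of members and 20.5% of genes passed in either direction. In testes 4 members were higher and 8 lower at an unadjusted p under 0.05, 23.1% of members against 37% of genes, whereas edgeR and DESeq2 each gave 7 higher and 7 lower. Testes calls were 3 higher and 3 lower with edgeR, against 11.6% and 11.4% of genes, and 4 higher and 4 lower with DESeq2, against 13% and 13.1%.

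The median log2 change over the members was 0.04 (cerebellum), -0.02 (liver) and -0.01 (testes), beside -0.01, 0.00 and 0.00 over all genes tested. Their median size regardless of sign was 0.10, 0.13 and 0.10, beside 0.09, 0.14 and 0.18 over all genes. WT and KO libraries did not overlap for 5 members in cerebellum (9.62%, against 15.1% of genes), for 7 in liver (13.7%, against 12.9%) and for 10 in testes (19.2%, against 27.5%). The 95% interval of the log2 change lay within 0.5 of 0 for 48 of the cerebellum members, 33 of those in liver and 44 of those in testes, and within 1 for 52, 49 and 52. In the main fits (limma with quantile normalization, each tissue apart), no member was called in more than 1 tissue, and 43 of 52 were called in none. DESeq2 called Trmt1 higher in cerebellum and lower in testes. A fit of all 24 libraries called Trub1 lower in liver and higher in testes. With sample quality weights Trmt1, Dus3l and Dus1l were each called in more than 1 tissue.

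**Figure D2:**
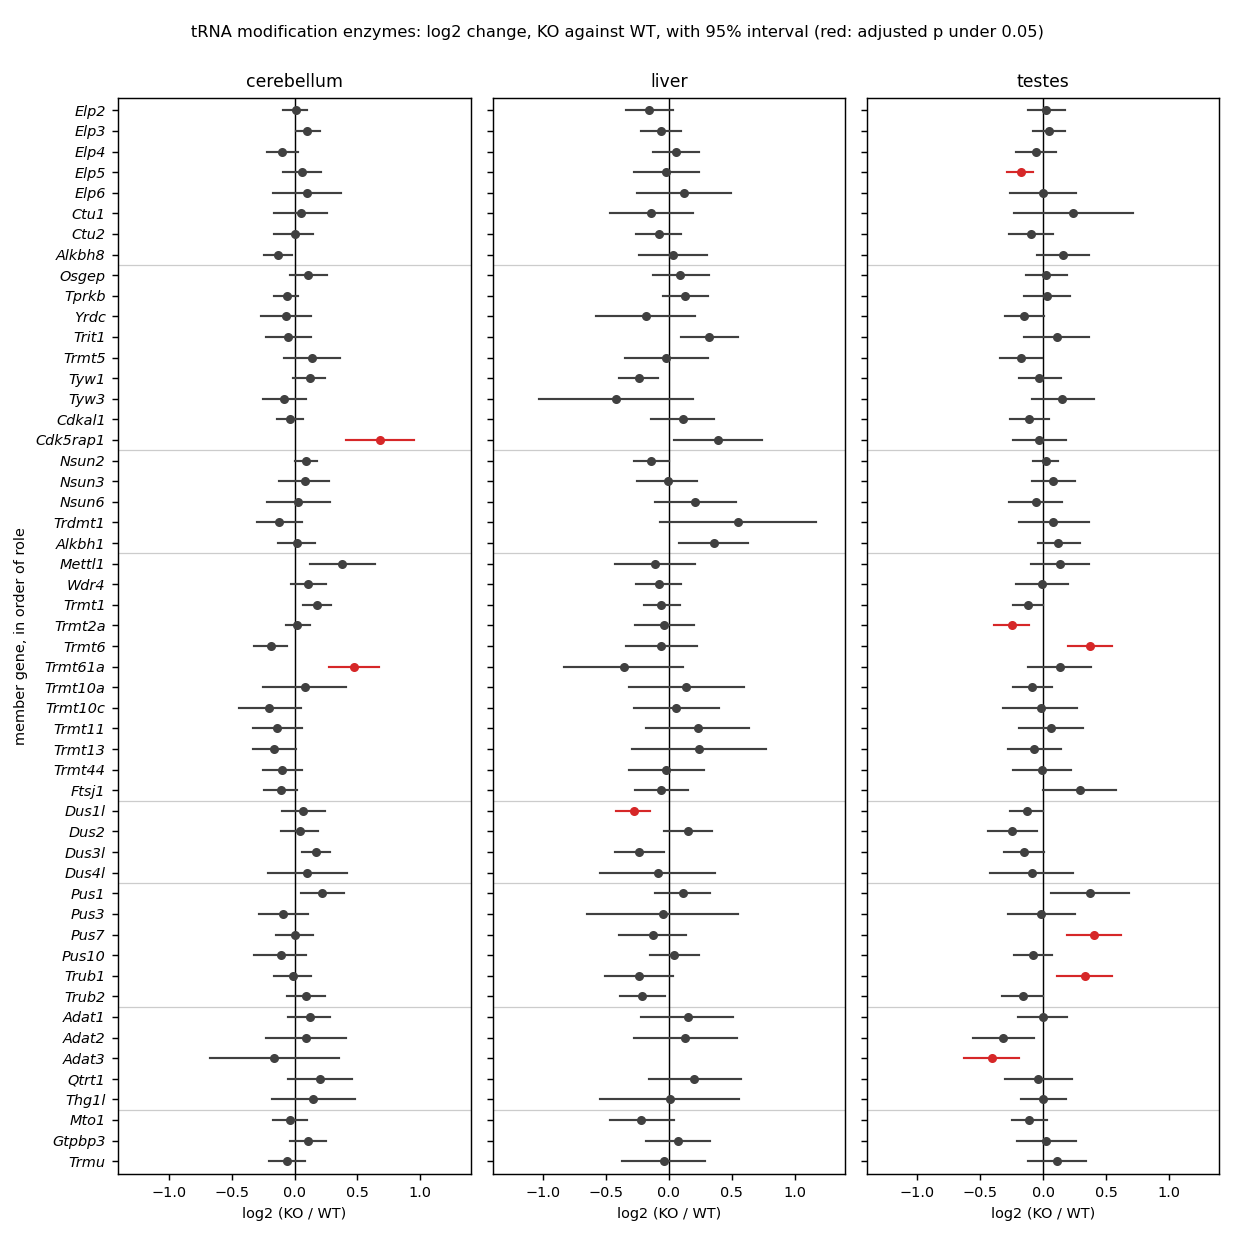
Log2 change of each member in KO against WT with its 95% interval, for cerebellum, liver and testes, in the order of the 8 role groups; red marks an adjusted p under 0.05 by limma. The red points are Cdk5rap1 and Trmt61a in cerebellum, Dus1l in liver and 6 members in testes, and the liver intervals are the widest.

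By role in the main fits, read against the 6.44%, 5.91% and 20.5% of all genes called in cerebellum, liver and testes, the wobble uridine group of 8 had 0 members called in cerebellum (median log2 change 0.03) and in liver (-0.04) and 1 lower in testes (0.01). The 9 members of the base next to the anticodon had 1 higher in cerebellum and 0 called in liver and testes, with medians of -0.04, 0.09 and -0.03. In liver Trit1 passed as higher and Tyw1 as lower with DESeq2 and with all 24 libraries in one fit. For cytosine 5-methylation 0 of 5 were called in any tissue, with medians of 0.03, 0.21 and 0.08. Alkbh1 passed as higher in testes with sample quality weights and with library totals only. The 12 other methyltransferases had 1 higher in cerebellum, 0 in liver, and 1 higher and 1 lower in testes. Of the 4 dihydrouridine synthases, 1 was lower in liver and 0 were called elsewhere, and the fitted changes of all 4 lay above 0 in cerebellum (0.04 to 0.17) and below 0 in testes (-0.25 to -0.09). With sample quality weights Dus3l also passed as higher in cerebellum, and Dus1l, Dus2 and Dus3l as lower in testes. Of the 6 pseudouridine synthases 2 were higher in testes, and of the 5 enzymes of deamination, queuine exchange and guanylate addition 1 was lower there. The mitochondrial wobble uridine group had 0 of 3 called in any tissue, with all 3 changes between -0.22 and 0.11.

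In cerebellum the members that rose were a mitochondrial tRNA enzyme and a methyltransferase subunit. Cdk5rap1 (ENSMUSG00000027487.11, chromosome 2, 154335380 to 154373010, minus strand) adds a methylthio group to mitochondrial tRNAs. It stood at 2.94, 3.6, 2.94 and 2.76 normalized CPM in WT and at 4.82, 4.31, 4.6 and 6 in KO. All KO libraries lay above all WT libraries, with KO 8 the highest. The log2 change was 0.68 ± 0.126 (SE; 95% interval 0.41 to 0.95; limma, adjusted p = 0.00869), or 1.6-fold. Trmt61a (ENSMUSG00000060950.12, chromosome 12, 111678105 to 111683902, plus strand) is the catalytic subunit of the N1-methyladenosine enzyme of the T loop. Its levels were 4.71, 5.18, 4.58 and 4.35 in WT and 6.66, 5.67, 6.97 and 6.79 in KO. The groups did not overlap, with WT 2 and KO 6 nearest to each other, and the log2 change was 0.47 ± 0.0925 (0.27 to 0.67; adjusted p = 0.0117), or 1.38-fold.

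Both calls held whichever of the 8 cerebellum libraries was left out. In a fit of all 24 libraries with TMM factors, which tested 22678 genes and called 0.498% of them higher and 0.362% lower in cerebellum, neither passed (adjusted p = 0.0554 for Cdk5rap1 and 0.288 for Trmt61a), at the same log2 changes of 0.68 and 0.47. The members next by p were Trmt1, which dimethylates guanosine (0.18 ± 0.0510, adjusted p = 0.0569), Dus3l (0.17 ± 0.0530, 0.0747) and Mettl1 (0.38 ± 0.121, 0.0798), none of which passed. Trmt1 passed with edgeR (0.0386) and DESeq2 (0.0425). Without KO cerebellum 6, Trmt1 (0.0132) and Dus3l (0.0256) passed as higher and Alkbh8 passed as lower, so that 5 members were called, beside 14.4% of all genes in that fit, and Dus3l also passed without WT cerebellum 2 (0.0274). Mettl1 stood at 2.25, 2.5, 2.12 and 2.06 in WT and 3.17, 2.82, 3.11 and 2.60 in KO, with no overlap. Trmt6, the partner of Trmt61a, went the other way without passing (-0.19 ± 0.0605, adjusted p = 0.0836), from 21.2, 21.4, 24.2 and 22.7 in WT to 19.5, 19.2, 18.7 and 20.3 in KO. The summed level of 12 forebrain marker genes was 132 to 148 in WT and 166 to 188 in KO cerebellum, with 2 of 7 tested higher, 0 lower and 0 of the 12 at 0 counts in all 8 libraries. That of 10 granule cell markers was 4832 to 4955 in WT and 4307 to 4663 in KO, with 4 of 10 lower, 0 higher and none at 0. The median log2 change of these 10 was -0.02. The sums of Purkinje cell, oligodendrocyte and midbrain markers overlapped between genotypes, with 2 higher and 0 lower in each list. Of all genes 3.93% were higher and 2.51% lower. The part of these markers in the changes above was not tested.

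**Figure D3:**
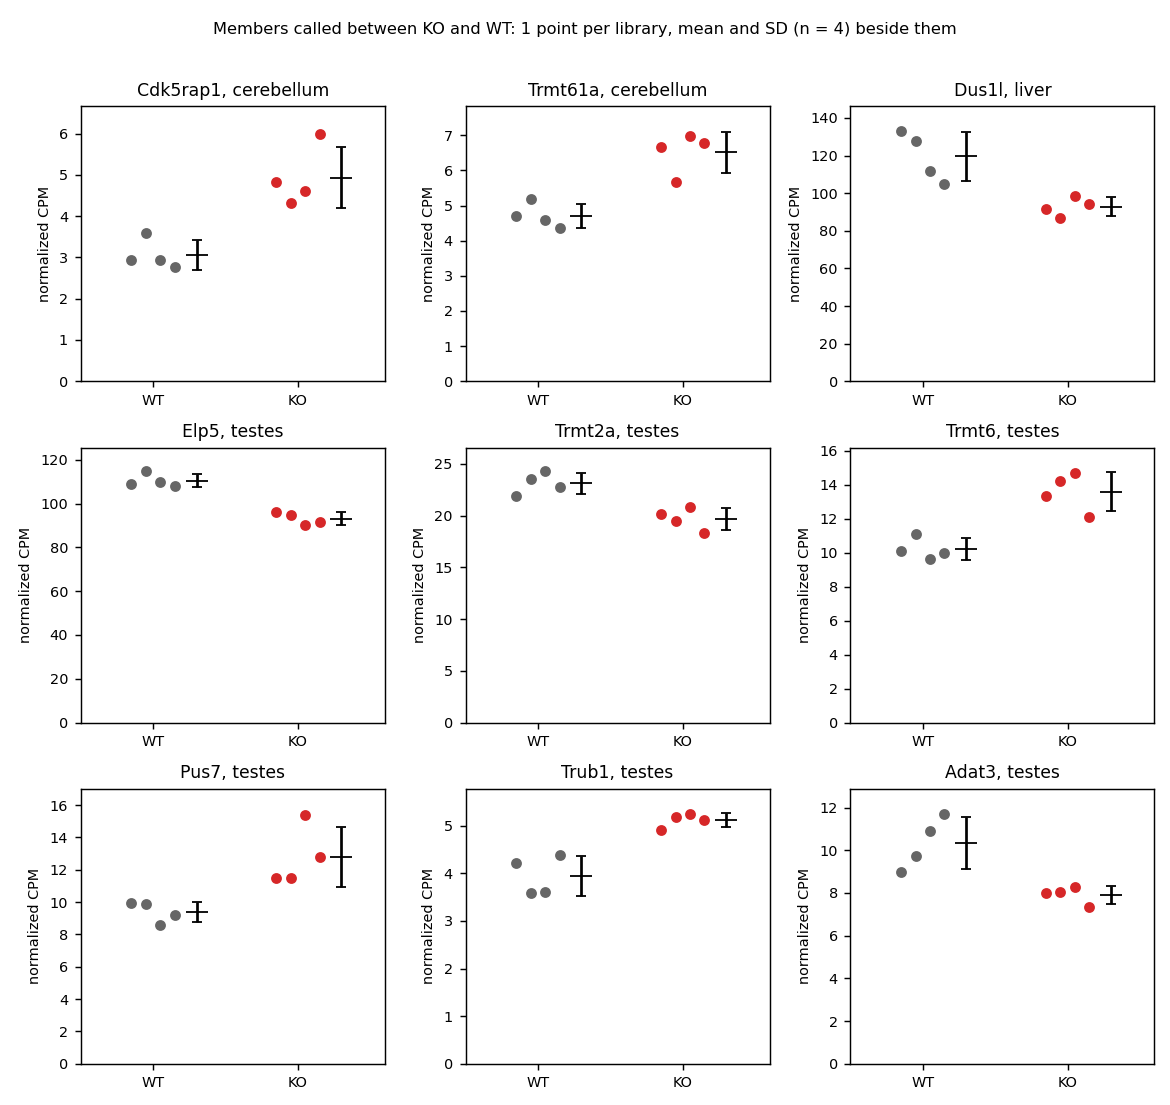
Normalized CPM of the 9 members called between KO and WT in the tissue of the call, 1 point per library in grey for WT and red for KO, with the mean and SD (n = 4) beside them and axes from 0. In every panel the 4 KO points lie on one side of the 4 WT points, by 1.6-fold for Cdk5rap1 in cerebellum and by less in the others.

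In liver the single member that passed was Dus1l, the highest of the members per kb. Dus1l (ENSMUSG00000025155.15, chromosome 11, 120789201 to 120796403, minus strand), a dihydrouridine synthase, stood at 133, 128, 112 and 105 normalized CPM in WT and 91.4, 86.6, 98.5 and 94.3 in KO. All KO libraries lay below all WT libraries, which themselves fell into a higher and a lower pair. The log2 change was -0.28 ± 0.0617 (-0.42 to -0.15; limma, adjusted p = 0.0243), or 0.822 of the WT level. The call was lost without WT liver 1 (adjusted p = 0.0868), WT liver 2 (0.0860), KO liver 7 (0.0538) or KO liver 8 (0.0748), at log2 changes of -0.25, -0.26, -0.28 and -0.26. The share of abundant structural noncoding RNAs ranged from 17.5% to 31% in liver libraries, beside 6.07% to 7.41% in cerebellum and 4.56% to 5.83% in testes. In the order of the Dus1l values above they took 17.5%, 19%, 23.1% and 31% in WT and 27.2%, 26.4%, 18.8% and 17.5% in KO, and leaving these RNAs out kept the call, whereas library totals only lost it at a log2 change of -0.31 (adjusted p = 0.0919). The part of this spread in the result was not tested further.

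The liver members next by p did not pass. Tyw1, an enzyme of wybutosine synthesis, stood at 34.3, 36.9, 35.8 and 31.5 in WT and 27.6, 24.7, 29.7 and 30.5 in KO, without overlap (-0.24 ± 0.0693, adjusted p = 0.0638). Trit1, the isopentenyltransferase, stood at 20.1, 18.0, 20.1 and 18.8 in WT and 21.8, 26.2, 24.6 and 21.4 in KO (0.32 ± 0.103, 0.0912). Both passed in DESeq2, Tyw1 at 0.0405 and Trit1 at 0.0374, and with all 24 libraries in one limma fit (0.0225 and 0.0477). Tyw1 also passed with sample quality weights (0.0402), and Trub1 passed as lower in liver in the fit of all 24 libraries. Alkbh1, which oxidizes 5-methylcytosine (0.36 ± 0.125, 0.118), and Dus3l (-0.24 ± 0.0885, 0.140) came next. Cdk5rap1, called in cerebellum, stood at 9.30, 9.82, 10.3 and 6.23 in WT liver and 12.6, 12.2, 10.5 and 12.0 in KO liver, without overlap and without passing (0.39 ± 0.159, 0.170).

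In testes 6 members passed in the main fit, 3 in each direction, with no fitted rise over 1.32-fold. Sample quality weights gave 14 calls, beside 31.6% of all genes. Trmt6 (ENSMUSG00000037376.14, chromosome 2, 132804207 to 132816055, minus strand), the partner of Trmt61a, rose from 10.1, 11.1, 9.61 and 10 normalized CPM in WT to 13.3, 14.2, 14.7 and 12.1 in KO. The groups did not overlap, and the log2 change was 0.37 ± 0.0810 (0.20 to 0.55; limma, adjusted p = 0.0110). The pseudouridine synthase Pus7 (ENSMUSG00000057541.14, chromosome 5, 23740648 to 23783711, minus strand) rose from 9.92, 9.89, 8.61 and 9.18 to 11.5, 11.5, 15.4 and 12.8, with KO 7 the highest, by 0.40 ± 0.0983 (0.19 to 0.62; 0.0166). Trub1, an enzyme for the T loop pseudouridine (ENSMUSG00000025086.13, chromosome 19, 57452912 to 57491005, plus strand), rose from 4.21, 3.58, 3.61 and 4.38 to 4.92, 5.19, 5.24 and 5.13, by 0.33 ± 0.101 (0.11 to 0.55; 0.0394). The KO libraries of Trub1 lay closer together than its WT libraries, and again the groups did not overlap.

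The members that fell in testes were Adat3, Trmt2a and Elp5. Adat3 (ENSMUSG00000113640.1, chromosome 10, 80602880 to 80607654, plus strand) went from 8.99, 9.71, 10.9 and 11.7 to 7.98, 8.06, 8.30 and 7.33, a log2 change of -0.41 ± 0.0998 (-0.63 to -0.19; limma, adjusted p = 0.0171). Summed with Gm49322, which stood at 6.90 ± 1.25 (SD, n = 4) in WT and 6.81 ± 2.06 in KO, the change was -0.26 and did not pass (0.0674). Its partner Adat2 stood at 9.89, 10.1, 9.08 and 8.55 in WT and 8.77, 8.75, 6.63 and 7.28 in KO and did not pass (-0.32 ± 0.113, 0.0668). Trmt2a, which makes ribothymidine (ENSMUSG00000022721.19, chromosome 16, 18248679 to 18254772, plus strand), went from 21.9, 23.5, 24.3 and 22.8 to 20.2, 19.5, 20.8 and 18.3, by -0.25 ± 0.0658 (-0.39 to -0.11; 0.0226). Its row is uncertain, since 15.5% of its exon bases overlap Dgcr8 on the other strand and the strand used in counting was not stated. Elp5 (ENSMUSG00000018565.17, chromosome 11, 69968222 to 69982517, minus strand), the highest member in testes per kb though below Nsun2 in normalized CPM, went from 109, 115, 110 and 108 to 96.2, 95, 90 and 91.5, by -0.18 ± 0.0476 (-0.29 to -0.08; 0.0228). For all 3 the KO libraries lay below the WT libraries.

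Of the 6 testes calls, Trmt6 alone held whichever library was left out, and without WT testes 3 or without WT testes 4 it was the 1 member called, beside 8.91% and 8.97% of all genes. Pus7 was lost without either of these (log2 change 0.37 and 0.40, adjusted p = 0.0599 and 0.0553), as was Adat3 (-0.37 and -0.34, 0.0602 and 0.0594). Trmt2a and Elp5 were also lost without WT testes 2 (-0.24 and -0.16, 0.0566 and 0.0686). Trub1 was lost on leaving out any of the libraries except KO testes 5, with log2 changes from 0.28 to 0.39 and adjusted p values from 0.052 to 0.118. The splits of calls by other scalings were 5 higher and 2 lower with library totals only, where 16.6% of all genes were higher and 7.94% lower, and 4 higher and 1 lower with all 24 libraries in one fit, where 8.02% of genes were higher and 7.98% lower. In that fit Adat3 (-0.37, adjusted p = 0.514) and Trmt2a (-0.23, 0.0625) did not pass. Trmt2a was also lost with no filter on low counts (-0.25, 0.053) and with library totals only (-0.16, 0.109), and Trub1 with no filter (0.33, 0.0852). The summed level of 21 Sertoli cell markers was 1395 to 1595 in WT testes and 1729 to 2342 in KO testes, with 13 of 20 tested higher and 0 lower. Elongating spermatid markers, 14 in all, summed to 14870 to 16011 in WT and 10704 to 13486 in KO with 8 of 14 lower, and 15 round spermatid markers to 3006 to 3196 and 2279 to 2789 with 7 of 15 lower. The sums of spermatocyte, spermatogonia and Leydig cell markers overlapped between genotypes. Of the spermatocyte markers 1 of 14 was lower, of the spermatogonia markers 1 of 10 higher, and of the Leydig cell markers 2 of 8 higher and 1 lower. Of all genes 9.74% were higher and 10.7% lower. None of these markers was at 0 counts in all 8 testes libraries, and their part in the changes of the 6 members was not tested.

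A ratio of partner subunits within a library cancels the scaling of that library, apart from the 0.01 added to each level. The log2 ratio of Trmt61a to Trmt6 per kb was -1.10 ± 0.17 (SD, n = 4) in WT cerebellum and -0.43 ± 0.14 in KO cerebellum, from -1.25 to -0.90 and from -0.61 to -0.28, without overlap. It was 0.74 ± 0.49 in WT liver and 0.38 ± 0.34 in KO liver, and -0.10 ± 0.11 and -0.33 ± 0.29 in testes, where the genotypes overlapped. Elp5 over Elp6, partners in the accessory Elongator subcomplex, was 6.27 ± 0.11 in WT testes, beside 2.19 ± 0.31 in WT cerebellum and 2.45 ± 0.11 in WT liver. In KO testes it was 5.97 ± 0.08, below the WT range, and in the other tissues the genotypes overlapped. Ctu1 over Ctu2 was close to 0 in WT cerebellum (-0.19 ± 0.12) and WT liver (0.12 ± 0.19) and -2.87 ± 0.32 in WT testes. Tprkb over Osgep, both of KEOPS, was 1.85 ± 0.08, 2.62 ± 0.12 and -1.26 ± 0.11 in WT cerebellum, liver and testes, and Mettl1 over Wdr4 was -1.61 ± 0.17, -0.20 ± 0.20 and 0.04 ± 0.14. The size of each ratio depends on the exon lengths used. These ratios were computed after the levels were seen and were not tested.

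**Figure D4:**
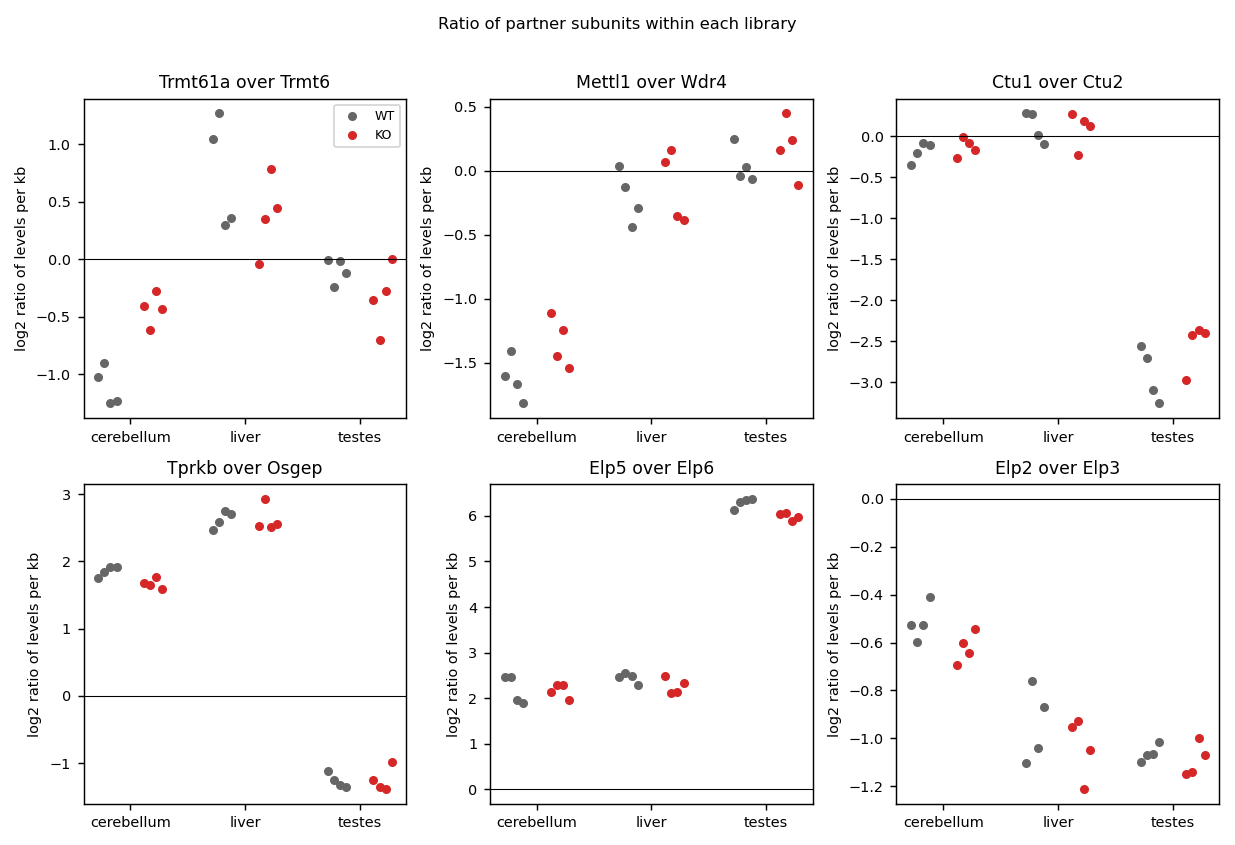
Log2 ratio of partner subunits per kb within each library for 6 pairs, 1 point per library, grey for WT and red for KO, grouped by tissue. Trmt61a over Trmt6 separates WT from KO in cerebellum (-1.10 and -0.43 on average), and Elp5 over Elp6, Ctu1 over Ctu2 and Tprkb over Osgep set testes apart from the other tissues in both genotypes.

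Whether the change in KO differed between tissues was tested directly for the 51 members that passed the filter in all 3. Between testes and liver 4 members differed (7.84%) by limma at an adjusted p under 0.05, against 15.9% of 11112 genes. Pus7 (0.49 ± 0.140, adjusted p = 0.0177) and Trub1 (0.54 ± 0.148, 0.0147) changed more upward in testes, and the dihydrouridine synthase Dus2 (-0.46 ± 0.103, 0.00418) and Cdk5rap1 (-0.49 ± 0.170, 0.0490) more upward in liver. Between testes and cerebellum 9 differed (17.6%), against 14.5% of genes. Trmt6 (0.53 ± 0.109, 0.00275) and Pus7 (0.38 ± 0.129, 0.0477) stood higher in testes relative to WT. Cdk5rap1 (-0.76 ± 0.191, 0.0105), Trmt1 (-0.41 ± 0.0708, 0.000719), Elp5 (-0.38 ± 0.111, 0.0238), Dus3l (-0.35 ± 0.0900, 0.0110), Dus2 (-0.34 ± 0.103, 0.0289), Trmt2a (-0.32 ± 0.0948, 0.0254) and Nsun2 (-0.22 ± 0.0750, 0.0485) stood lower. Elp5, Dus2, Trmt2a, Nsun2 and Pus7 lost these calls with the library number as a block (limma, adjusted p from 0.0569 to 0.0999). The cerebellum and liver effects differed for 5 members (9.80%), against 7.67% of genes, all higher in cerebellum: Trmt61a (0.81 ± 0.214, 0.0199), Dus3l (0.39 ± 0.0988, 0.0166), Dus1l (0.37 ± 0.103, 0.0263), Tyw1 (0.35 ± 0.0940, 0.0216) and Nsun2 (0.26 ± 0.0795, 0.0422).

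Behind the testes to cerebellum difference of Trmt1 were levels of 27.5, 27.4, 27.4 and 28.7 in WT cerebellum and 30.7, 28.2, 33.2 and 31.9 in KO cerebellum, where only KO 6 lay within the WT range. In testes Trmt1 went from 74.9, 79.7, 80.7 and 78.9 to 66.1, 70.6, 73.0 and 70.1, without overlap and in the other direction. Trmt61a in liver stood at 10.8, 9.60, 6.32 and 5.42 in WT and 4.78, 4.80, 7.57 and 6.47 in KO, so that the genotypes overlapped and the WT libraries spread over more than the change. The Trmt61a difference between cerebellum and liver was lost without WT liver 1 (0.67, adjusted p = 0.0503). In the comparison of testes with cerebellum 4 members were called without WT cerebellum 3 or KO cerebellum 7 and 5 without WT testes 3, where 11%, 9.73% and 10.2% of all genes were called. In that of cerebellum with liver 2 were called without WT liver 1 and 3 without WT liver 2, WT cerebellum 4 or KO cerebellum 5, and the shares of all genes were then 5.57%, 5.41%, 5.31% and 5.53%. For testes and liver 3 to 6 were called, beside 11% to 21.2% of all genes, and the Cdk5rap1 call was lost on leaving out most of the libraries, to an adjusted p of 0.102 without WT testes 3. The split of these calls was 2 higher and 2 lower in testes, 1 and 2 after quantile normalization, and 3 and 2 with DESeq2, while 7.95% and 7.92%, 8.03% and 6.89%, and 10.3% and 10.7% of all genes were higher and lower. For cerebellum and liver DESeq2 gave 7 and 1, beside 7.06% and 5.9% of all genes. The calls that held whichever of the 24 libraries was left out were Dus2 and Trub1 for testes and liver, Cdk5rap1, Trmt1, Trmt6 and Dus3l for testes and cerebellum, and Tyw1 and Dus3l for cerebellum and liver. Some of these were lost in other fits: Trub1 after quantile normalization (0.46, adjusted p = 0.0607), and with a filter at 1 CPM in 4 of the 24 libraries Dus2 (-0.34, 0.0668), Dus3l for both comparisons (0.203 and 0.101) and Tyw1 (0.054).

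**Figure D5:**
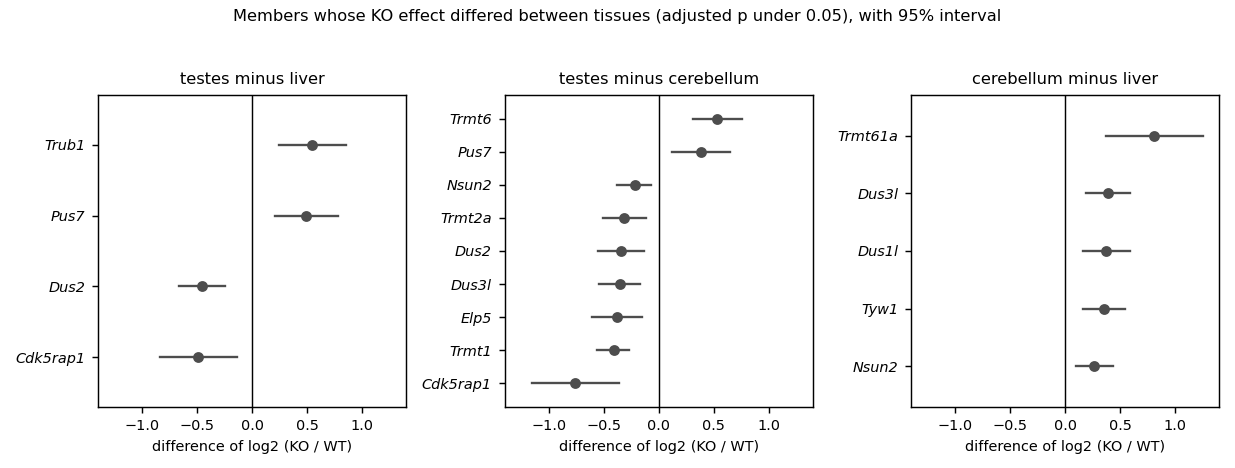
Difference between tissues of the log2 change in KO against WT, with its 95% interval, for the members that passed at an adjusted p under 0.05; positive values mean a higher KO level relative to WT in the tissue named first. The comparisons hold 4, 9 and 5 members, and Trmt61a between cerebellum and liver (0.81) and Cdk5rap1 between testes and cerebellum (-0.76) lie farthest from 0.

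Of Elongator, Elp2, Elp3, Elp4 and Elp6 passed in no tissue, beside the lower Elp5 in testes. Also called in no tissue were the KEOPS members Osgep and Tprkb, the mitochondrial set Mto1, Gtpbp3 and Trmu, and the thiolases Ctu1 and Ctu2, although Ctu2 passed as lower in testes with sample quality weights. Only 4 members had a fitted change above 0 in all 3 tissues. Pus1, a pseudouridine synthase of nucleus and mitochondria, stood at 0.22 (cerebellum), 0.11 (liver) and 0.37 (testes), and the others were Alkbh1, Gtpbp3 and Osgep. In testes Pus1 had an adjusted p of 0.0857 by limma, and it passed as higher in KO testes with DESeq2, with all 24 libraries in one fit, with library totals only and without WT testes 2. Ctu2, Mto1, Pus3, Trmt44 and Yrdc lay below 0 in all 3. The rows of Pus3, Ctu2, Yrdc and Pus1 share 88.1%, 47.3%, 24.6% and 23.8% of their exon bases with a gene on the other strand and are uncertain, as are those of Adat2, Trmt2a, Trub2, Trmt13 and Wdr4, the 9 members with over 10% shared. In all, 19 members shared some exon bases with such a gene, among them Tprkb (8.93%) and Trmt10a (5.73%).

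Beyond the 52 members, 39 of 42 further tRNA modification genes on a second list were in the table. Of these 1 of 39 tested was higher in KO cerebellum, the ribose methylation partner Wdr6 (0.21 ± 0.0571, limma, adjusted p = 0.0487), where 6.44% of all genes were called, and 0 of 38 passed in liver, where 7 had an unadjusted p under 0.05, beside 5.91% of all genes called in liver and 23.3% at that unadjusted p. In testes, where 20.5% of all genes were called, 3 of 39 were higher, Thada (0.28 ± 0.0765, 0.0265), Trmt1l (0.21 ± 0.0542, 0.0192) and Trmt9b (0.63 ± 0.180, 0.0301), and 3 were lower, Mocs3 (-0.37 ± 0.0962, 0.0208), Alkbh3 (-0.27 ± 0.0689, 0.0212) and Rpusd3 (-0.38 ± 0.105, 0.0273). Among 24 genes of tRNA processing and export, 0 of 24 passed in cerebellum, where 2 had an unadjusted p under 0.05, beside 6.44% of all genes called and 24.2% at that unadjusted p. Of the 22 tested in liver 2 were lower, the tRNA export receptor Xpot (-0.26 ± 0.0518, 0.0159), from 122 ± 3.82 (SD, n = 4) to 96.0 ± 9.49 normalized CPM, and the splicing endonuclease subunit Tsen34 (-0.31 ± 0.0780, 0.0430). Of 23 in testes 2 were higher, the trailer endonuclease Elac1 (0.41 ± 0.0978, 0.0153) and the La protein gene Ssb (0.27 ± 0.0796, 0.0357), and 1 was lower, the RNase P subunit Rpp21 (-0.34 ± 0.0979, 0.0310).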

How the data were processed

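RNA-seq was run on 24 libraries, 4 per genotype in cerebellum, liver and testes, with a stranded total RNA kit after ribosomal RNA removal. The authors deposited 1 table of expected counts per gene, after alignment by STAR and quantification by RSEM (genome mm10, annotation GENCODE M21). Tool versions and the strand setting are not given in the sources used here. Values of 4 members were not whole in some libraries, and no column of per-sample values was left without a sample. Groups came from the labels. Each tissue was fitted apart in R 4.3.3 with limma 3.58.1 (voom with quantile normalization) on genes with at least 1 CPM in at least 4 libraries, with the test, normalization and CPM minimum taken from the study's methods. WT tissues and differences of the KO effect were fitted with TMM factors from edgeR 4.0.16, the latter on all 24 libraries and on genes above that filter in each of 3 tissues. Tests were two-sided, with Benjamini-Hochberg adjustment over all genes tested and a call at an adjusted p under 0.05. Counts were rounded for edgeR and DESeq2 1.42.0. Scripts were tested on simulated data. Printed levels are CPM after TMM scaling over 24 libraries, whereas log2 changes come from the fits. Intervals cover the spread between libraries, with no depth limit printed for counts of 0, since no member was at 0 in a whole group.

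The members and gene lists were chosen with earlier results of these data known. Named were Thumpd1, every member called in a tissue (20 at most) with those next by p up to 5, the 4 largest rises and falls between each pair of WT tissues, members whose KO effect differed between tissues, and the 5 highest and lowest per kb in each WT tissue; subunit partners, and single libraries' values, were added after the data were seen. Exon lengths and overlaps came from GENCODE M21 for all 52 members, and promoters from RefSeq for 47.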

Additional observations from a re-analysis of the deposited data

Results flagged for a closer look

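In 1 of the 32 groups of 4 libraries examined for the members named in a genotype comparison, a single library stood apart from the rest: Trmt1 was at 28.7 normalized CPM in WT cerebellum 4, beside 27.4 to 27.5 in the other 3, a gap that was 0.888 of the whole range and past Dixon's critical value for 4 samples. By chance about 1 group in 20 would stand out in this way.

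A difference of the KO effect between tissues was found for 13 members by the interaction term in limma. For testes minus liver the log2 differences were -0.49 for Cdk5rap1, -0.46 for Dus2, 0.49 for Pus7 and 0.54 for Trub1. For testes minus cerebellum they were -0.76 for Cdk5rap1, -0.41 for Trmt1, -0.38 for Elp5, -0.35 for Dus3l, -0.34 for Dus2, -0.32 for Trmt2a and -0.22 for Nsun2, and 0.53 for Trmt6 and 0.38 for Pus7. For cerebellum minus liver they were 0.81 for Trmt61a, 0.39 for Dus3l, 0.37 for Dus1l, 0.35 for Tyw1 and 0.26 for Nsun2.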

How the results depend on the processing

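Each of 58 named changes examined under the alternatives kept its sign in all that were run for it, and 31 also kept their side of the threshold. Calls in KO moved with the fit. Sample quality weights gave 4 in cerebellum, 2 in liver and 14 in testes (5 higher, 9 lower), where the shares of all genes higher and lower were 5.92% and 4.91% (cerebellum), 6.39% and 6.91% (liver) and 15.6% and 16% (testes). DESeq2 gave 3 in liver, all 24 libraries in one fit gave 0 in cerebellum (6 at an unadjusted p under 0.05 by limma) and 4 in liver, beside 0.498% and 0.362% of all genes higher and lower in the former and 2.76% and 4.22% in the latter, and library totals, tried after the data were seen, gave 0 in liver (9 at an unadjusted p under 0.05). Leaving out 1 library gave 2 to 5 calls in cerebellum, 0 to 1 in liver (5 to 7 at an unadjusted p under 0.05 where 0 were called) and 1 to 7 in testes, while 2.59% to 14.4%, 2.23% to 6.25% and 8.91% to 25.6% of all genes were called. The members' median log2 change in cerebellum was 0.05 without noncoding RNAs and 0.06 with library totals (0.01 to 0.05 leaving out 1 library). In testes it was 0.05 with edgeR, 0.04 with DESeq2, 0.04 with TMM factors, 0.05 without noncoding RNAs, 0.04 with all 24 libraries and 0.11 with library totals (-0.02 to 0.00 leaving out 1). In liver it ran from -0.07 to 0.02 leaving out 1. Calls between WT tissues ran from 41 to 46, 41 to 45 and 39 to 42 leaving out 1 (testes and liver, testes and cerebellum, cerebellum and liver), beside 88.2% to 93.1%, 88.2% to 92.6% and 85.8% to 92.2% of all genes. The cause of these shifts was not tested.

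For differences of the KO effect, the filter at 1 CPM in 4 of 24 libraries gave 3 members for testes and cerebellum (6.14% of all genes) and 0 for cerebellum and liver (2.49%; 22678 genes tested; 14 members at an unadjusted p under 0.05), quantile normalization 5 for testes and cerebellum (8.84%), and DESeq2 8 for cerebellum and liver (13%). Leaving out 1 library gave 3 to 6 for testes and liver, 4 to 10 for testes and cerebellum and 2 to 7 for cerebellum and liver, beside 11% to 21.2%, 9.73% to 17.1% and 5.03% to 11.1% of all genes. With the replicate block these counts were 6, 5 and 5, beside 19.8%, 11.1% and 11.1%. Between testes and cerebellum Elp5 (adjusted p = 0.0623), Trmt2a (0.0569), Dus2 (0.0728), Nsun2 (0.0893) and Pus7 (0.0999) then lost their calls at the same log2 differences, and Ftsj1 gained one. Between cerebellum and liver Nsun2 (0.0624) lost its call and Trmt1 gained one, and between testes and liver Cdkal1 and Adat2 gained calls. Deviations of same-numbered libraries correlated between -0.198 and 0.203 across tissues, and 7 of 12 KO and 2 of 12 WT correlations were best with their own number. The 4 KO correlations between testes and liver were 0.109 to 0.154 and the 4 WT ones -0.063 to 0.0346. By chance 1 in 4 would be best with its own number. These values do not settle whether the numbers pair samples, and the main fits used no block. No paired analysis was possible for KO against WT within a tissue because the labels number WT libraries 1 to 4 and KO libraries 5 to 8. Intervals were widest in liver, with a median half-width of the 95% interval of 0.27, beside 0.16 in cerebellum and 0.20 in testes.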
